A study of Mus musculus with 18 samples.

Results

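The Runx transcription factors Runx1, Runx2 and Runx3 and their shared partner Cbfb were followed by RNA sequencing in the dental epithelium of molars from wild-type mice and from mice whose labels name a knockout of both Hmgn1 and Hmgn2, which encode nucleosome-binding proteins. The 4 genes were chosen by symbol. They were 4 of 32532 genes (32 of 110159 transcripts) at embryonic day 17 (E17) and 4 of 19450 genes (18 of 38288 transcripts) at postnatal day 5 (P5). None of them is among the 4841 genes (16381 transcripts) listed at postnatal day 0 (P0), so they were not analysed here at that stage. The P0 list is shorter than those of the other stages, so absence from it does not show a lack of expression. The 2 genotypes were wild type (WT) and the double knockout (DKO), labelled Hmgn1-/-; Hmgn2-/-, with 3 libraries per genotype and stage and 18 libraries in the series. The labels give no strain, no sex and no description of the alleles, and all groups share the same tissue and the same separation of epithelium from mesenchyme with dispase. Whether the replicate libraries come from different animals is not in the labels, and the p-values therefore refer to the spread among these libraries, part of which may be technical.

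Runx proteins bind DNA through the Runt domain. CBFβ, the product of Cbfb, does not touch DNA itself. It holds the Runt domain in its binding form and protects Runx proteins from degradation, so that all Runx factors draw on the same partner. Runx1 is best known for blood formation and also acts in epithelial stem cells, Runx2 is the master factor of osteoblast differentiation and is expressed in tooth epithelium and mesenchyme, and Runx3 acts in epithelia, in T cells and in proprioceptive sensory neurons. Each Runx gene has a distal promoter (P1) and a proximal promoter (P2), whose transcripts encode proteins with different amino ends. For Runx2 the distal transcript is the form typical of osteoblasts, and the proximal transcript is found more widely.

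The distal promoters carry a motif that the Runx proteins themselves can bind, shown here because the distal and proximal Runx2 transcripts differed between genotypes in opposite directions at P5. The 6 promoter windows of the members, each 300 bases long (250 before to 50 after the annotated start), were taken from RefSeq on build GRCm38.p6 and searched on both strands for the letters TGTGGT, the core of the Runx motif, whose reverse complement is ACCACA. The longest run of bases shared by the distal windows of Runx1, Runx2 and Runx3 was 18 bases long and holds ACCACA in tandem. The stretches of 30 bases around it, written 5′ to 3′ on the strand of the gene with ACCACA in capitals, lie at chr16:92826025-92826054 (Runx1, minus strand), chr17:44814583-44814612 (Runx2, minus strand) and chr4:135120503-135120532 (Runx3, plus strand):
Runx1 distal promoter: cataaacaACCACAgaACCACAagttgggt
Runx2 distal promoter: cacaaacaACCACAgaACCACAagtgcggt
Runx3 distal promoter: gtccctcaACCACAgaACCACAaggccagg
The shared run spans bases 27 to 44 after the annotated start of Runx1, bases 22 to 39 after that of Runx2 and bases -136 to -119 of Runx3. Among 32851 promoter windows of the same length it was found in 4. Of these, 3 are the distal windows from which the run was defined, so their matches were fixed in advance. The other window with the run belongs to a predicted gene on the opposite strand that overlaps the distal window of Runx3. The distal Runx2 window holds 1 further match, at base -80. At least 1 TGTGGT on either strand was present in 16.8% of all windows and at least 2 in 1.81%. These letters were not in the proximal windows of Runx1 and Runx3 or in the window of Cbfb, and the table has no window for the proximal promoter of Runx2. The distal windows held 45.0% (Runx1), 45.3% (Runx2) and 63.7% (Runx3) G and C, against 69.0% to 77.3% in the other windows. A match of letters is a description and shows no binding.

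**Figure D1:**
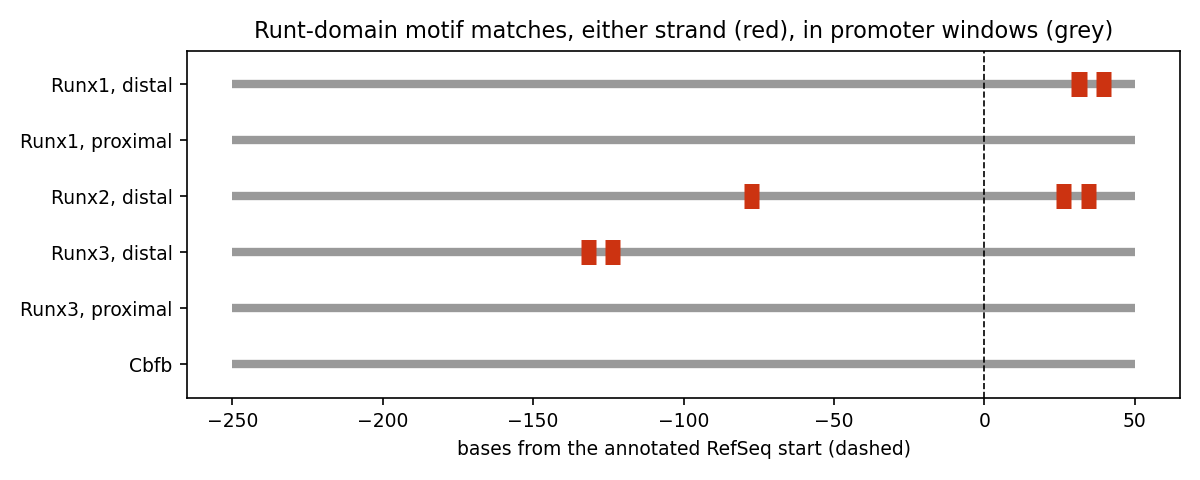
Matches of the 6-base Runx motif on either strand (red) in the RefSeq promoter windows of the members (grey), plotted by distance in bases from the annotated start. The 3 distal windows hold 2 or 3 matches each and the other 3 windows hold none.

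Values are RPKM (reads scaled to transcript length and to the mapped reads of the library), summed over the transcripts of a gene, and are comparable between genes within a library. Libraries had 65953495 to 99967427 alignments at E17 and 39209676 to 72660832 at P5, and 1 read on a transcript of 1 kb was worth 0.0243 to 0.0597 RPKM. Log2 fold changes are differences of log2(RPKM + 1), DKO minus WT, ± the standard error that limma gave, with Benjamini-Hochberg adjustment over all 13728 genes tested at E17 and 11423 at P5; the scale understates the change of low genes. The 4 members passed the filter at both stages. Over all genes tested the log2 fold changes had a median of 0.25 at E17 and -0.25 at P5. Dividing each library by its upper quartile brought these medians to 0.01 and -0.02. Amelx, the main enamel matrix gene, took 21.7% to 24.2% of the summed RPKM of WT libraries at P5 and 33.8% to 38.8% in DKO; its part in the shift was not tested. A gene is said to have risen or fallen where its adjusted p was under 0.05 in the same direction before and after scaling, and "scaled" marks the value after it. Hmgn2 fell from 320.0 to 354 RPKM in WT to 0.839 to 0.975 in DKO at E17, and from 166 to 183 to 5.44 to 10.4 at P5. Hmgn1 fell from 123 to 133 to 86.2 to 92.9 at E17 and from 179 to 189.6 to 69.8 to 72.6 at P5. Hmgn1 was thus lower but well above 0 in every DKO library, so its values do not by themselves show a loss of the gene.

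Runx1 rose in the double knockout at both stages, Runx2 rose and Runx3 fell at P5, and Cbfb passed the test in no stage after scaling. Before scaling 2 of 4 members passed at E17, where 59.6% of all genes passed and 56.3% did so upwards, and 3 of 4 passed at P5, where 65.5% of all genes did. By the rule of both scalings 1 of 4 members was called at E17, where 10.7% of all genes were, and 3 of 4 at P5, where 34.1% of all genes were. The share of all genes that rose was 7.61% at E17 and 7.35% at P5, and the share that fell was 3.05% and 26.7%. Counts of list and marker genes that rose or fell, given below, are to be read beside these shares. The WT and DKO libraries did not overlap for 2 of 4 members at E17 (64.7% of all genes) and for 4 of 4 at P5 (70.4%), so a lack of overlap was common in these tables.

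The level of the partner gene lay above that of every Runx gene. In WT libraries at E17 the order was Cbfb at 31.0 to 33.0 RPKM, Runx2 at 10.3 to 15.5, Runx1 at 2.86 to 3.91 and Runx3 at 1.19 to 1.84. In WT libraries at P5 Cbfb stood at 26.5 to 29.8, Runx1 at 11.5 to 12.5, Runx2 at 4.35 to 5.01 and Runx3 at 1.42 to 2.07. Runx1 and Runx2 thus stood in opposite order at the 2 stages. The ranges of neighbours in the order did not overlap in any of the 4 groups, and the order within a stage was the same in DKO. The transcript annotation differs between the stages (Ensembl names at E17, RefSeq at P5), so levels were not tested across stages.

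**Figure D2:**
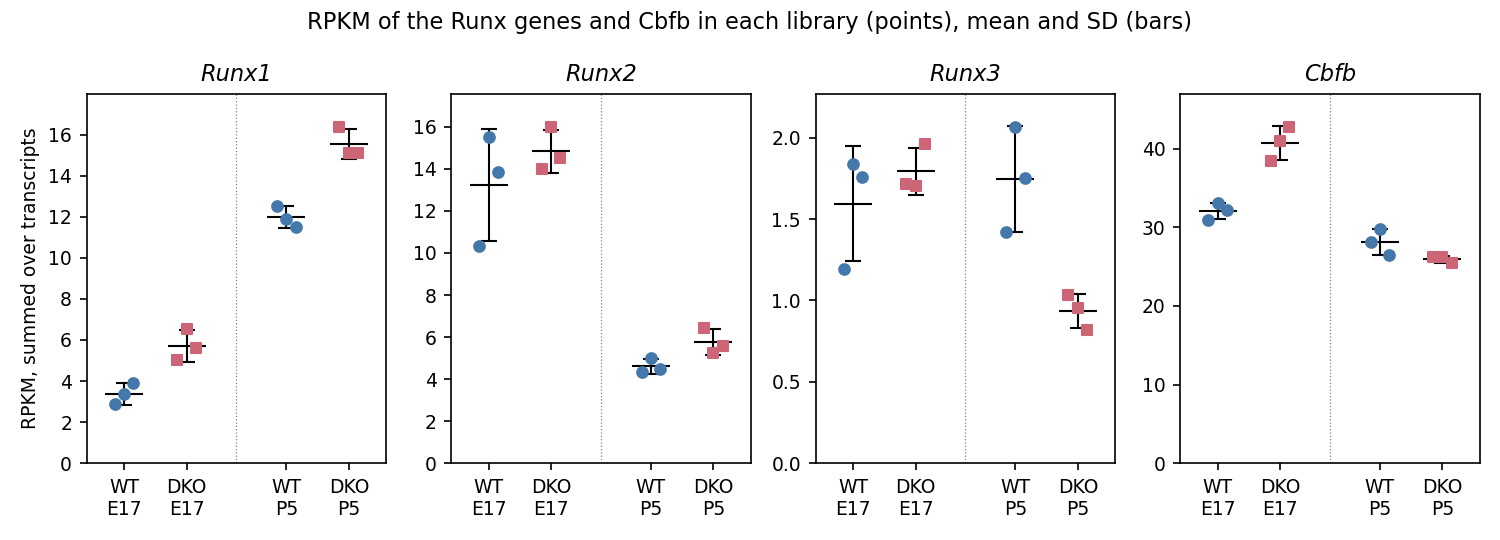
RPKM of Runx1, Runx2, Runx3 and Cbfb in each library (points; blue circles WT, red squares DKO), with the mean and SD of the 3 libraries of each group (bars). Runx1 was higher in every DKO library at both stages, and Runx3 was lower in every DKO library at P5.

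Runx1 (chromosome 16, 92601466 to 92826149, minus strand, mm10) was higher in every DKO library than in every WT library at both stages. At E17 it stood at 2.86, 3.35 and 3.91 RPKM in the WT libraries and at 5.0, 6.52 and 5.59 in the DKO libraries. The log2 fold change was 0.62 ± 0.11 (limma adjusted p = 0.00289; scaled 0.40, adjusted p = 0.0439). Under median-of-ratios scaling the E17 change was 0.38 with a limma adjusted p of 0.0504, so the call was lost. At P5 it stood at 12.5, 11.9 and 11.5 RPKM in WT and at 16.4, 15.1 and 15.1 in DKO. That change was 0.35 ± 0.06 (limma adjusted p = 0.000862), and 0.59 after scaling (adjusted p = 4.98e-05). With the most abundant transcript alone the P5 change before scaling was 0.22 (limma adjusted p = 0.0586), so that call was lost.

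Runx1 came from both promoters at E17 and almost wholly from the proximal promoter at P5, in the authors' split of reads between transcripts. The shares at E17 and at P5 rest on different annotations, so this contrast between stages was not tested. At E17 the 465-residue distal transcript stood at 1.71 ± 0.19 RPKM in WT and 2.85 ± 0.33 in DKO (SD, n = 3), and the 387-residue proximal transcript at 1.25 ± 0.09 and 2.06 ± 0.25. Both passed before scaling and neither after it (scaled limma adjusted p = 0.116 and 0.141). The proximal one also lost its call without WT replicate 2, DKO replicate 2 or DKO replicate 3 (limma adjusted p = 0.0522, 0.0688 and 0.0815). The distal share of Runx1 RPKM was 45.8% to 55.1% in WT libraries and 48.1% to 56.4% in DKO, overlapping ranges. At P5 the distal share was 0.288% to 3.73% in WT and 0.544% to 2.03% in DKO. The 451-residue proximal transcript was the most abundant there, at 8.87 ± 0.51 RPKM in WT and 10.6 ± 1.51 in DKO (log2 fold change 0.22, limma adjusted p = 0.121; scaled 0.46, adjusted p = 0.0134), and it passed without DKO replicate 2 (0.33, adjusted p = 0.0272). The 387-residue transcript rose from 2.91 ± 0.55 to 4.78 ± 0.99 RPKM (0.56 ± 0.16, limma adjusted p = 0.0212; scaled 0.77, adjusted p = 0.00954). It lost the call without WT replicate 2 (0.44, limma adjusted p = 0.0572) without DKO replicate 2 (0.43, adjusted p = 0.0615) and with no filter on low transcripts (adjusted p = 0.0964). Of all members' transcripts, 3 of 7 tested passed before scaling at E17, where 34.6% of all transcripts did, and none of the 7 in both scalings, where 4.53% did. At P5 these counts were 4 of 7 (44.9% of all transcripts) and 3 of 7 (22.2%), and they are descriptions, since some transcripts met the filter mainly through the genotype in which they were higher.

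Some markers of blood cells also differed between the genotypes in the libraries in which Runx1 did. The summed level of 8 immune markers was 72.1 to 83.3 RPKM in WT and 96.2 to 100.6 in DKO at E17, and 39.6 to 46.9 in WT and 20.7 to 31.1 in DKO at P5. After upper-quartile scaling these sums overlapped at E17, at 79.0 to 91.4 in WT and 88.1 to 93.0 in DKO. At P5 they still did not overlap, at 34.5 to 43.7 in WT and 22.9 to 34.1 in DKO (exact permutation p = 0.1), although the nearest libraries lay close together. In both scalings 1 of 8 immune markers rose at E17 (Tyrobp), where 7.61% of all genes did. At P5, 4 of 7 tested fell (Csf1r, Cd68, Tyrobp and Cx3cr1), where 26.7% of all genes did. List members that are printed without values, in these and the other lists, were named after their values were seen. The scaled median of the immune list at E17 was 0.07. Of 4 red cell markers, 3 rose at E17 (Hba-a1, Hbb-bs and Alas2), and 2 of 3 tested fell at P5 (Hbb-bs and Alas2). The part of these cells in the Runx1 values was not tested. In bulk samples fewer cells of a type and less RNA per cell cannot be told apart. Runx1 lies 3.29 Mb from Hmgn1 on chromosome 16, and an effect of the targeted gene cannot be told apart from one of the flanking chromosome segment of the mutant allele.

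Runx2 (chromosome 17, 44495987 to 44814797, minus strand) rose at P5 and changed its balance of transcripts, with more from the proximal and less from the distal promoter. At P5 it stood at 4.35, 5.01 and 4.47 RPKM in WT and at 6.43, 5.23 and 5.58 in DKO, without overlap. The log2 fold change was 0.26 ± 0.09 (limma adjusted p = 0.0191; scaled 0.48, adjusted p = 0.00208). Before scaling the call was lost without WT replicate 1 (0.23, limma adjusted p = 0.0570), without WT replicate 3 (0.25, adjusted p = 0.0575), without DKO replicate 1 (0.19, adjusted p = 0.0886) and with no filter on low genes (adjusted p = 0.0534). At E17 it stood at 10.3, 15.5 and 13.9 RPKM in WT and at 14.0, 15.99 and 14.5 in DKO, and the groups overlapped. The change at E17 was 0.17 ± 0.13 (95% interval -0.12 to 0.46, limma adjusted p = 0.273), and -0.08 after scaling (-0.39 to 0.22, adjusted p = 0.687).

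The summed proximal Runx2 transcripts were higher and the summed distal ones lower in every DKO library at P5, before and after upper-quartile scaling. The 4 proximal transcripts summed to 2.62, 3.62 and 2.42 RPKM in WT and to 5.57, 4.51 and 4.70 in DKO. The 4 distal transcripts summed to 1.73, 1.39 and 2.05 RPKM in WT and to 0.861, 0.716 and 0.880 in DKO. Single transcripts did not all follow the sums: the proximal NM_001271631 stood at 0.0371 to 0.0906 RPKM in WT and 0.0231 to 0.0509 in DKO, and the ranges of the proximal NR_073425 and of the most abundant distal transcript NM_001146038 (0.592 to 0.885 and 0.388 to 0.751) overlapped between genotypes. The distal share of Runx2 RPKM, which no scaling of libraries can move, was 39.7%, 27.7% and 45.8% in WT against 13.4%, 13.7% and 15.8% in DKO. An exact permutation test of the share gave p = 0.1 (two-sided), the smallest p that 3 against 3 libraries allow, so it could not pass the threshold. The proximal transcripts NM_001145920 and NM_001271630 passed the filter and rose in both scalings. Both were matched to the same GENCODE transcript of 514 residues, so their own protein lengths are not given here. NM_001145920 went from 1.39 ± 0.57 to 2.59 ± 0.32 RPKM (0.61 ± 0.19, limma adjusted p = 0.0339) and NM_001271630 from 0.774 ± 0.417 to 1.69 ± 0.35 (0.62 ± 0.20, adjusted p = 0.0401). The first lost its call without WT replicate 3, DKO replicate 1 or DKO replicate 2 (0.40, 0.57 and 0.58; limma adjusted p = 0.0541, 0.0888 and 0.0852). The second lost it without WT replicate 1, WT replicate 3, DKO replicate 1 or DKO replicate 3 (0.41, 0.70, 0.54 and 0.59; limma adjusted p = 0.0869, 0.0552, 0.111 and 0.0945), and with a pseudocount of 0.1 (adjusted p = 0.0617). With no filter on low transcripts neither passed (limma adjusted p = 0.136 and 0.152). NM_001271630 met the filter in every DKO library but in only 1 WT library, so its test depended on the genotype in which it was higher. The 4 distal transcripts were each under the filter and had no test of their own.

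At E17 the distal share of Runx2 was 49.6% to 54.6% in WT and 54.5% to 59.8% in DKO, overlapping narrowly. The distal transcripts summed to 5.31, 7.7 and 7.57 RPKM in WT and to 8.36, 8.72 and 8.25 in DKO, without overlap (exact permutation p = 0.1), but after upper-quartile scaling to 5.82 to 8.46 and 7.37 to 8.08, which overlap. The 528-residue distal transcript stood at 5.81 ± 1.12 RPKM in WT and 7.44 ± 0.32 in DKO (0.32 ± 0.13, limma adjusted p = 0.0818). The 514-residue proximal transcript stood at 4.19 ± 0.87 and 3.55 ± 0.70 (-0.19 ± 0.16, adjusted p = 0.369). The share at E17 and at P5 rests on different annotations, and the authors' split of reads between transcripts that share most exons cannot be checked from the values. Supt3 overlaps the distal end of Runx2 on the other strand, 3 antisense genes (Runx2os1 to Runx2os3) lie within Runx2, and the counting of strand is not given in the sources used here. Runx2os1, beside the proximal promoter, stood at 0.220 to 0.674 RPKM at E17.

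Markers of bone and dentine cells summed lower in DKO at both stages. The summed level of 6 osteoblast and odontoblast markers at P5 was 611 to 846 RPKM in WT and 283 to 319 in DKO. All 6 of 6 fell at P5, where 26.7% of all genes did. The summed level of 7 mesenchyme markers at P5 was 278 to 373 in WT and 121 to 172 in DKO, and 4 of 7 fell (Dcn, Lum, Pdgfrb and Twist2). At E17, where total Runx2 did not pass and the distal sum was higher in DKO as deposited, 3 of 5 tested osteoblast and odontoblast markers fell (Ibsp, Dmp1 and Phex) and their sum was 380 to 455 in WT against 146 to 259 in DKO. Defining markers of mesenchyme such as Col3a1 were thus well above 0 in a tissue labelled epithelium (72.6 to 95.1 RPKM in WT at P5). Cartilage and muscle markers at E17 included genes that fell as well: Col2a1, the collagen gene of cartilage (-1.60, scaled -1.86), and 2 of 4 skeletal muscle markers, Myh3 (-1.72, scaled -1.98) and Myod1 (-1.22, scaled -1.41). Col2a1 was the only 1 of 4 cartilage markers tested before scaling, and the others did not move alike. Acan was lower in DKO (0.964 to 1.04 RPKM in WT, 0.613 to 0.684 in DKO). Col9a1 was higher in every DKO library (0.302 to 0.363 in WT, 0.566 to 0.631 in DKO), and Matn1 overlapped near 0. The 4 muscle markers summed to 241 to 554 RPKM in WT and 226 to 291 in DKO at E17, and none passed the filter at P5. The part of these cells in the Runx2 values was not tested.

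**Figure D3:**
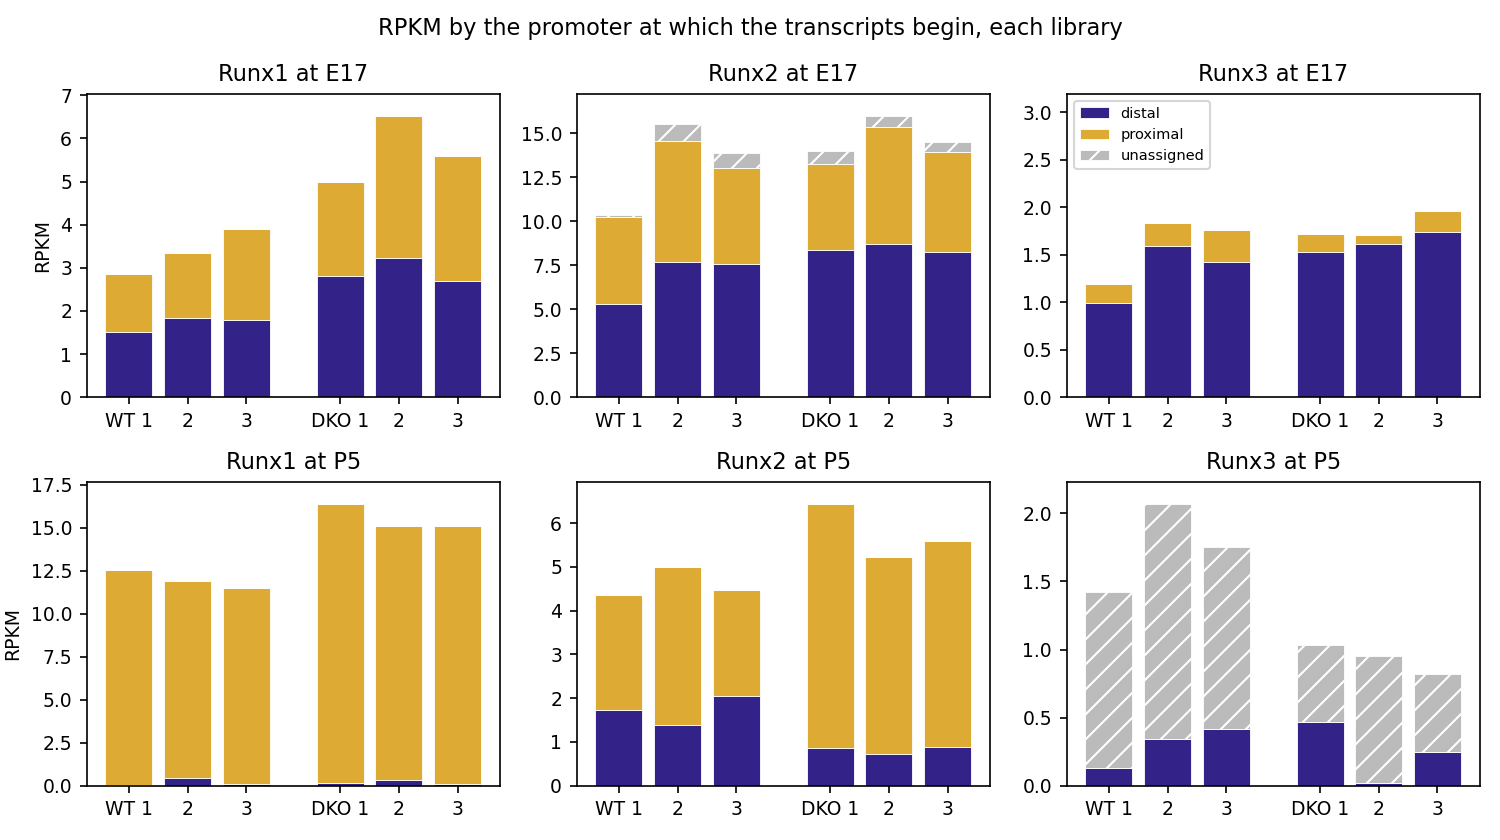
RPKM of Runx1, Runx2 and Runx3 in each library, stacked by the promoter at which the transcripts begin (distal, proximal, or unassigned where the transcript had no annotated start in the reference used). At P5 the distal part of Runx2 was 1.39 to 2.05 RPKM in WT and 0.716 to 0.880 in DKO.

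Runx3 (chromosome 4, 135120652 to 135177990, plus strand), the least abundant member, fell at P5. It stood at 1.42, 2.07 and 1.76 RPKM in WT and at 1.03, 0.952 and 0.822 in DKO, without overlap. The log2 fold change was -0.50 ± 0.10 (limma adjusted p = 0.00149; scaled -0.36, adjusted p = 0.0231). As deposited, every WT library but only 1 DKO library reached the filter of 1 RPKM, so the test depended on the genotype in which Runx3 was higher. The fit with no filter, run on the deposited values only, gave a limma adjusted p of 0.0104. At E17 the groups overlapped, at 1.19, 1.84 and 1.76 RPKM in WT and 1.72, 1.70 and 1.96 in DKO. That change was 0.11 ± 0.11 (95% interval -0.14 to 0.37, limma adjusted p = 0.392), and -0.06 after scaling (-0.32 to 0.21, adjusted p = 0.772).

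Most Runx3 RPKM at P5 was assigned to the transcript NM_001369050, which the reference used here ties to no promoter. It stood at 1.29, 1.72 and 1.34 RPKM in WT and at 0.567, 0.930 and 0.573 in DKO, without overlap. It met the filter through the WT libraries alone, so no test of it is given. The distal transcript NM_019732 stood at 0.129, 0.343 and 0.414 RPKM in WT and at 0.466, 0.0225 and 0.249 in DKO, under the filter and overlapping. At E17 the 423-residue distal transcript carried 81.3% to 86.5% of Runx3 RPKM in WT and 88.6% to 94.99% in DKO, without overlap (exact permutation p = 0.1).

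Markers of T cells, which use Runx3, were at or near 0, while a marker of proprioceptive neurons was read at E17. Of 4 T and NK cell markers, none passed the filter at either stage, and the measured ones summed to 0.105 to 0.326 RPKM at E17 and 0.339 to 0.639 at P5 over both genotypes. Ntrk3, the neurotrophin receptor of proprioceptive neurons, stood at 3.55 to 4.2 RPKM in WT and 3.13 to 3.70 in DKO at E17 (-0.11, limma adjusted p = 0.269; scaled -0.33, adjusted p = 0.0228), above Runx3 itself. It was listed at 0.578 to 0.798 RPKM in WT and 0.109 to 0.215 in DKO at P5, under the filter. The part of these cells in the Runx3 values was not tested. Runx3 lies 1.15 Mb from Hmgn2 on chromosome 4, and an effect of the targeted gene cannot be told apart from one of the flanking chromosome segment of the mutant allele.

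Cbfb (chromosome 8, 105170674 to 105217989, plus strand) passed in both scalings at neither stage, and its deposited values moved in the same sense as the median of all genes. At E17 it stood at 31.0, 33.0 and 32.2 RPKM in WT and at 38.4, 40.9 and 42.7 in DKO, without overlap. The log2 fold change was 0.33 ± 0.07 (limma adjusted p = 0.00394), but 0.07 after scaling (95% interval -0.04 to 0.18, adjusted p = 0.340). At P5 it stood at 28.1, 29.8 and 26.5 RPKM in WT and at 26.2, 26.2 and 25.4 in DKO. That change was -0.11 ± 0.06 (limma adjusted p = 0.123) and 0.14 after scaling (95% interval 0.01 to 0.27, adjusted p = 0.0632), and 0.16 under median-of-ratios scaling (adjusted p = 0.0347). The direction at P5 therefore turned with the scaling.

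Cbfb was made mainly of the transcripts for 187 and 182 residues of the protein, which differ at the carboxyl end. At E17 the 187-residue transcript stood at 9.07 ± 0.61 RPKM in WT and 13.6 ± 0.40 in DKO (0.54 ± 0.07, limma adjusted p = 0.00528; scaled 0.29, adjusted p = 0.0663). The 182-residue transcript stood at 22.2 ± 1.67 and 25.99 ± 2.51 (0.22 ± 0.09, adjusted p = 0.0946; scaled -0.04), and it passed without DKO replicate 1 (0.29, adjusted p = 0.0361). The share of Cbfb RPKM in the 182-residue transcript was 66.9%, 72.6% and 67.6% in WT and 60.9%, 63.8% and 66.5% in DKO. These did not overlap (exact permutation p = 0.1). The share in the 187-residue transcript was 25.5% to 31.1% in WT and 30.8% to 36.0% in DKO, ranges that overlapped. At P5 that share was 33.0% to 41.2% in WT and 36.2% to 43.9% in DKO, and neither transcript passed (limma adjusted p = 0.712 and 0.143); the 182-residue transcript passed without WT replicate 3 (-0.28, adjusted p = 0.0257).

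**Figure D4:**
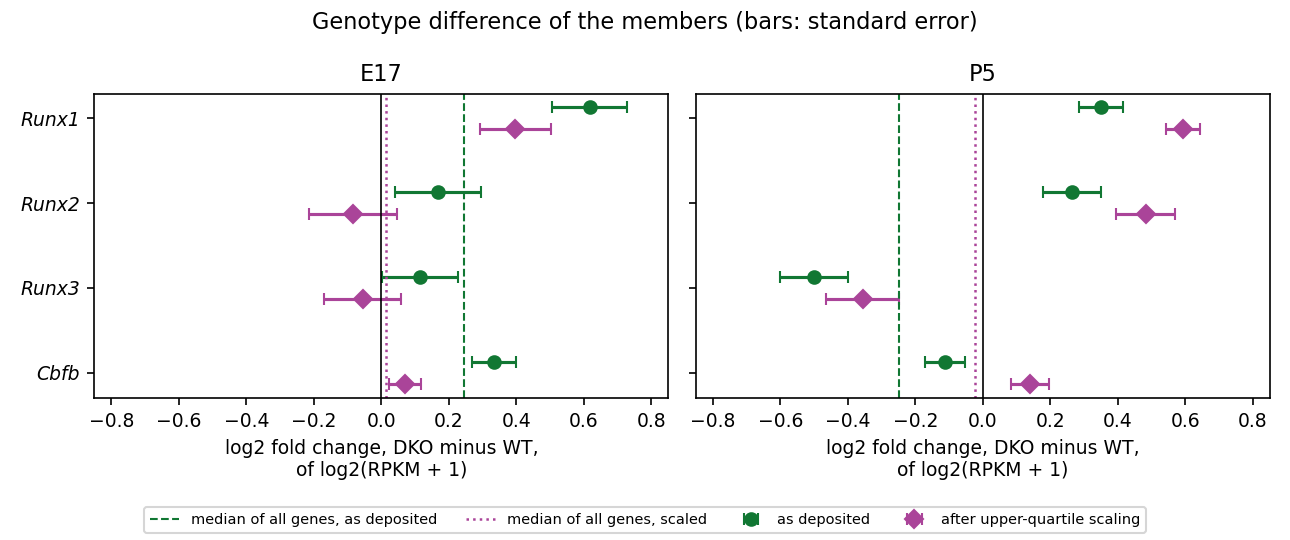
Log2 fold changes (DKO minus WT, of log2(RPKM + 1), limma) of the 4 members at E17 and P5 as deposited (green circles) and after upper-quartile scaling (purple diamonds), with standard errors as bars and the median of all genes as vertical lines. Runx1 lay above 0 in both stages and both scalings, and Cbfb at P5 lay below 0 as deposited and above 0 when scaled.

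The balance among the members within a library is free of any scaling between libraries. Runx1 made up 19.9%, 16.2% and 20.0% of the summed Runx RPKM in WT at E17 and 24.2%, 26.9% and 25.3% in DKO, while Runx2 made up 71.0% to 75.0% and 65.8% to 67.5%. At P5 Runx1 made up 62.7% to 68.5% in WT and 68.7% to 71.0% in DKO. Runx3 made up 7.75%, 10.9% and 9.91% in WT and 4.34%, 4.47% and 3.82% in DKO. The Runx2 share at P5 overlapped, at 23.75% to 26.4% in WT and 24.56% to 26.98% in DKO. So did the ratio of Runx1 to Runx2 RPKM at P5, at 2.375 to 2.883 in WT and 2.546 to 2.889 in DKO. The ratio of Runx1 to Runx3 RPKM at P5 was 5.75 to 8.84 in WT and 15.8 to 18.4 in DKO. Cbfb RPKM per summed Runx RPKM overlapped between genotypes at E17, at 1.60 to 2.15 in WT and 1.69 to 1.94 in DKO. At P5 it was 1.53, 1.57 and 1.50 in WT and 1.10, 1.23 and 1.18 in DKO, so the surplus of partner over Runx transcripts was smaller in DKO. Each of these differences without overlap had an exact permutation p of 0.1, the smallest that the design allows.

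The genotype effect was compared between the stages as the P5 log2 fold change minus the E17 log2 fold change. As deposited, 2 of 4 members passed the limma-based test of this difference, where 80.7% of 11049 genes did. Runx3 differed by -0.61 ± 0.15 (adjusted p = 0.00118) and Cbfb by -0.45 ± 0.09 (adjusted p = 0.000201), Runx1 by -0.27 ± 0.13 (adjusted p = 0.0681) and Runx2 by 0.10 ± 0.15 (adjusted p = 0.568). After scaling 1 of 4 members passed, where 43.8% of genes did. Runx2 then differed by 0.57 ± 0.16 (limma-based adjusted p = 0.00985), and Runx3 by -0.30 ± 0.16 (adjusted p = 0.133). No member passed with the same call in both scalings.

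Cofactors that Runx proteins recruit had median fold changes close to those of all genes. Of 25 cofactors tested at E17, 17 passed upwards before scaling and 1 in both scalings, with a median log2 fold change of 0.27 (all genes 0.25) and a scaled median of 0.01. Tle1, a Groucho corepressor, was the cofactor that rose at E17, from 15.7 ± 0.56 to 23.2 ± 0.69 RPKM (0.53 ± 0.06, scaled 0.27). Tle3 (0.41, scaled 0.15) and Yap1, a Hippo coactivator (0.36, scaled 0.09), did not pass after scaling, and the acetyltransferase gene Ep300 passed in neither scaling (0.11, scaled -0.13). At P5, 2 of 23 cofactors rose (Wwtr1 and Crebbp) and 4 fell (Hdac1, Sin3a, Carm1 and Smarca4), with a median of -0.25 (all genes -0.25). Wwtr1, which encodes the Hippo coactivator TAZ, rose from 15.8 ± 0.85 to 18.4 ± 0.49 RPKM (0.21 ± 0.06, scaled 0.46). Runx1t1, the partner of Runx1 in a leukaemia fusion, was under the filter at P5, and at E17 it stood at 1.32 to 1.41 RPKM in WT and 1.04 to 1.12 in DKO (-0.19, limma adjusted p = 0.0732; scaled -0.33). Cbfa2t2 passed in both scalings at neither stage (0.15 at E17, 0.02 at P5).

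Of 18 regulators of the Runx factors tested at E17, 4 rose and none fell, with a median of 0.30 and a scaled median of 0.04. Msx2, a homeobox gene of tooth and skull, rose from 6.38 ± 0.29 to 23.1 ± 2.01 RPKM (1.70 ± 0.08, limma adjusted p = 8.96e-06, scaled 1.46). Dlx5, a homeobox activator of Runx2, rose from 23.9 ± 2.56 to 42.8 ± 2.71 RPKM (0.82, scaled 0.55), and Twist2, a repressor of Runx2 activity, rose from 9.89 ± 1.58 to 17.9 ± 1.68 RPKM (0.80, scaled 0.55). The other gene that rose was Dlx3. Twist1 (0.24, scaled -0.03) and the ubiquitin ligase gene Smurf1 (0.31, scaled 0.07) did not pass in both scalings. At P5, 2 of 18 rose (the BMP mediators Smad1 and Smad5) and 3 fell, among them Twist2 and Hey1. Twist2 fell from 7.17 ± 1.25 to 2.69 ± 0.70 RPKM (-1.15 ± 0.14, scaled -0.94). Dlx5 was 44.1 to 47.6 RPKM in WT and 45.4 to 45.6 in DKO at P5 (0.01, scaled 0.26), and Msx2 passed in neither scaling (-0.15, scaled 0.11). Twist2 is also in the list of mesenchyme markers.

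Bone and cartilage genes with known Runx sites fell at both stages in part of the list, and no tested gene of it rose in both scalings. At E17, 6 of 13 tested fell and none rose, with a median of -0.65 (all genes 0.25) and a scaled median of -0.86. At P5, 9 of 12 fell and none rose, with a median of -1.22 and a scaled median of -0.997. Sp7, the osteoblast factor downstream of Runx2, fell at P5 from 14.1 ± 0.79 to 4.98 ± 0.49 RPKM (-1.34 ± 0.08, limma adjusted p = 2.81e-06, scaled -1.11), while at E17 it stood at 20.7 to 24.9 in WT and 17.7 to 22.4 in DKO (-0.16, scaled -0.42). Ibsp, the bone sialoprotein gene, fell by both scalings (-1.22 and -1.49 at E17, -0.92 and -0.66 at P5). The osteocalcin gene Bglap and the osteopontin gene Spp1 fell at P5 (-1.41 and -1.53, scaled -1.15 and -1.28). Mmp13 passed before but not after scaling at both stages (scaled 0.36 at E17 and -0.59 at P5), as did Alpl at P5 (-0.38, scaled -0.12), and Col10a1, a gene of hypertrophic cartilage, was under the filter at both stages. Sp7, Ibsp, Bglap, Phex and Dmp1 are also in the list of osteoblast and odontoblast markers above, so the 2 lists are not separate evidence. Col2a1 and the muscle markers Myh3 and Myod1 also fell at E17 in the same libraries. Total Runx2 was thus higher at P5 in the same libraries in which 9 of 12 tested bone and cartilage genes fell.

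Genes of the Runx1-Stat3 axis, which is known from incisor epithelial stem cells and palate, did not move as a group. At E17 Socs3, a feedback inhibitor of Stat3, rose from 6.01 ± 0.20 to 9.70 ± 1.06 RPKM (0.61 ± 0.08, scaled 0.37). Lgr5, a stem cell marker, fell from 4.78 ± 0.53 to 3.54 ± 0.06 RPKM at E17 (-0.34 ± 0.08, scaled -0.56) and was under the filter at P5. Stat3 passed in both scalings at neither stage (0.13, scaled -0.12 at E17; 0.12, scaled 0.36 at P5). Tgfb3 fell at P5 from 15.5 ± 0.85 to 8.84 ± 0.60 RPKM (-0.74 ± 0.07, scaled -0.50). That is 2 of 4 tested at E17, where 10.7% of all genes were called in both scalings, and 1 of 3 at P5, where 34.1% were.

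Of 10 ameloblast genes tested at P5, 5 rose (Amelx, Ambn, Enam, Mmp20 and Amtn) and none fell, with a median of 0.41 (all genes -0.25) and a scaled median of 0.65; at E17, 3 of 6 rose (Odam, Sp6 and Satb1) and 1 fell (Ambn), with a median of 0.37. Amelx rose from 103854, 108356 and 90465 RPKM in WT to 197948, 190145 and 162338 in DKO (0.86 ± 0.11, scaled 1.12). Amtn, the amelotin gene of maturing enamel, rose from 8.64, 36.3 and 18.5 to 130, 97.9 and 84.8 RPKM (2.44 ± 0.37, limma adjusted p = 0.000249, scaled 2.69). Klk4, the enamel protease gene of maturation, did not pass before scaling at P5 (0.23, scaled 0.45). Odam rose at E17, from 0.982 to 2.15 in WT to 7.64 to 9.65 RPKM in DKO (1.89 ± 0.16, scaled 1.69), and at P5 it stood at 150 to 181 and 138 to 160. Markers of dental epithelium summed to 1649 to 1915 RPKM in WT and 1962 to 2133 in DKO at E17, and overlapped at P5 (3640 to 4411 and 3624 to 3718). After upper-quartile scaling they overlapped at E17 (1809 to 2098 and 1863 to 1896) and not at P5 (3394 to 3846 and 3985 to 4072).

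**Figure D5:**
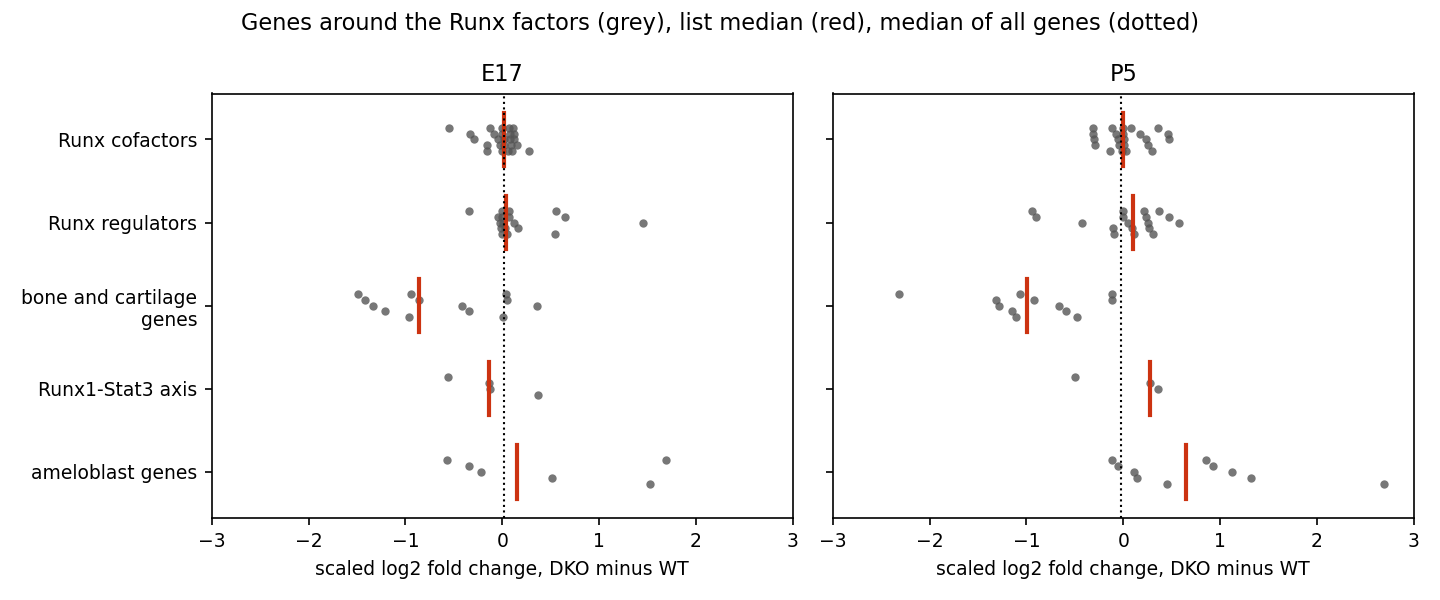
Scaled log2 fold changes (DKO minus WT) of the tested genes of 5 lists around the Runx factors at E17 and P5 (grey points), with the median of each list (red) and of all genes (dotted line). The bone and cartilage list lay lowest at both stages, with scaled medians of -0.86 and -0.997.

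The genes whose pattern was most like that of each member were sought over 12 libraries and 11049 genes, by the Pearson correlation of log2 values centred within each stage. The libraries share their scaling shift between genotypes, so these are descriptions. For Runx1 they were Rhbdf2 (r = 0.984), Irf2bp2 (0.972) and Ptch1 (0.970), and for Runx3 they were Tbx2 (0.962), Scube1 (0.955) and P2ry6 (0.946). For Cbfb they were Lamp2 (0.982), Fbxl14 (0.977) and Hnrnph2 (0.969). For Runx2 they were Ikzf5 (0.894), Crim1 (0.887) and Specc1 (0.880), and no gene exceeded 0.9, against 134 genes for Runx1, 52 for Runx3 and 486 for Cbfb.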

How the data were processed

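Members and gene lists were chosen with earlier results of these data known. Per the labels' protocols, total RNA was depleted of ribosomal RNA before library preparation with a kit from NEB. Partek and build mm10 are named in the submitters' processing notes. No aligner, annotation or strand setting is given in the sources used here. The values the authors deposited are RPKM per transcript. This unit was read from the values, of which 71.5% to 87.5% (low values of genes with 1 transcript) were whole multiples of 1 read within 0.1. They were summed per symbol. Transcript starts within 10 kb of the outermost GENCODE start were called distal. At P5 starts and residue counts are those of the GENCODE transcript matched to each RefSeq transcript, and some RefSeq transcripts shared the same match. Genes with RPKM of at least 1 in at least 3 of 6 libraries were tested on log2(RPKM + 1) with limma 3.58.1 in R 4.3.3 (trend, two-sided, Benjamini-Hochberg adjustment), each stage alone. Libraries were also divided by their upper quartile, and the rule of passing both ways and the scaling of summed levels were chosen after values were seen. Named genes were the members, fixed cofactors, regulators and targets, and the 3 genes most alike; a few genes are not reported here. Alternatives were median-of-ratios scaling, no filter, a pseudocount of 0.1, no trend, the replicate number as a block, the most abundant transcript alone and each library left out.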

Additional observations from a re-analysis of the deposited data

Results flagged for a closer look

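The genotype effect differed between the stages for 2 members before scaling, by the test of the difference itself. For Runx3 the P5 log2 fold change minus the E17 log2 fold change was -0.61 (limma-based adjusted p = 0.00118), from 0.11 at E17 and -0.50 at P5. For Cbfb the difference was -0.45 (limma-based adjusted p = 0.000201), from 0.33 at E17 and -0.11 at P5. After upper-quartile scaling these were -0.30 and 0.07, and neither passed (adjusted p = 0.133 and 0.453). The median of all genes moved in the same sense, at 0.25 for E17 and -0.25 for P5.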

How the results depend on the processing

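After upper-quartile and median-of-ratios scaling, respectively, the log2 fold change of Runx2 at E17 was -0.084 and -0.10, of Runx3 at E17 -0.055 and -0.066, of Cbfb at E17 0.070 and 0.054, and of Cbfb at P5 0.14 and 0.16, and that of Runx1 at E17 was 0.38 under the latter (limma adjusted p = 0.0504). The stage differences after upper-quartile scaling were 0.20 (Runx1), 0.57 (Runx2), -0.30 (Runx3) and 0.070 (Cbfb), and that of Runx1 was -0.37 with a pseudocount of 0.1. The most abundant transcript alone gave 0.32 for Runx2 at E17 (limma adjusted p = 0.0377, a call gained before scaling). It gave 0.22 for Cbfb at E17 and 0.22 for Runx1 at P5 (limma adjusted p = 0.0544 and 0.0586, calls lost). Runx2 at P5 was 0.26 with no filter (limma adjusted p = 0.0534). With 1 library left out, Runx2 at E17 ranged from 0.012 (without WT replicate 1) to 0.28 (without WT replicate 2), its 528-residue transcript from 0.18 to 0.41 for the same libraries, Runx3 at E17 from -0.0028 to 0.18, Runx2 at P5 from 0.19 to 0.32 and the transcript NM_022309 from -0.013 to 0.13. After scaling the 182-residue Cbfb transcript was -0.041 at E17 and 0.061 at P5. The cause was not tested. Calls were 94.5% upwards at E17 and 11.2% at P5 as deposited, 50.9% and 45.7% after upper-quartile and 45.5% and 50.3% after median-of-ratios scaling. At E17 8188 genes passed as deposited, and 2052 after upper-quartile and 2016 after median-of-ratios scaling. Same-numbered libraries shared only a number (correlation of deviations -0.22 to 0.22). With a replicate block no call of a member gene changed (Runx2 at P5 0.26, limma adjusted p = 0.0377), and the transcripts NM_009821 and NM_001271630 lost theirs (adjusted p = 0.0505 and 0.0721). The alternatives for P0 were not run because no member is among the genes listed at that stage.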
